A study of Mus musculus with 20 samples.

Results

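RNA bound to tagged tanycyte ribosomes was compared between mice lacking the insulin receptor (IR) in tanycytes and mice that kept it. The comparison holds 6 of the 20 sequencing libraries of the series: immunoprecipitations (IPs) of 3 pools of IRΔTan mice and of 3 pools of control mice, all fed a normal chow diet (NCD). They were chosen by their labels alone. The inputs, RNA of the whole lysate of the same pools, are a further 6 libraries and are used here to set each change in the IPs beside the change in the surrounding tissue.

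According to the description of the series, the IRΔTan mice were IR fl/fl and the controls IR wt/wt, and mice of both groups were heterozygous (tg/wt) for Rosa26-L10-EGFP on a C57Bl/6 background. The sample labels name the control genotype IRmKate2 instead. The pulldown sections of the study's methods, like the description, give IR wt/wt controls injected with AAV-Dio2-Cre. The surgery section, however, names a control virus carrying mKate2 as well as the Cre virus for several experiments, this pulldown among them. It does not say which group of the pulldown was given which virus. By the description and the pulldown sections, male and female mice aged 12 weeks received AAV-Dio2-Cre in the lateral ventricle. The mediobasal hypothalamus was taken 4 weeks later. By that description both groups carried the L10-EGFP transgene and the Cre virus, and the Dio2 promoter decided which cells made Cre, and with it both the tagged ribosomal protein and, in IR fl/fl mice, the loss of the receptor. A pool held 5 to 7 mice by the description of the series, whereas the extraction protocol starts at 4. If the controls were IR wt/wt, the groups also differ in the Insr allele that they inherited, and the deletion in tanycytes and the surroundings of that allele cannot be told apart. In the study IRmKate2 otherwise stands for mice with the floxed allele whose virus carried no Cre. Under that reading the inherited allele would be shared, but no Cre would be present to switch on the tagged protein. Tanycyte markers were nonetheless enriched in the control IPs, as given below.

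Tanycytes are elongated glial cells that line the floor and lower walls of the third ventricle. They send long processes into the median eminence and the arcuate nucleus and are known to pass hormones and nutrients between blood, cerebrospinal fluid and neurons. Insulin binds to its receptor, a tyrosine kinase, which phosphorylates insulin receptor substrates and so drives the PI3K and AKT kinases, and AKT in turn keeps FOXO transcription factors out of the nucleus. In ribosome pulldown, ribosomes that carry a tagged protein are precipitated with an antibody to the tag, and the mRNA found on them is sequenced.

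Total estimated counts were 36117959 to 48673945 in the IRΔTan IPs and 42867913 to 48625426 in the control IPs. Levels are given as CPM, which are counts scaled to a common library total, after scaling of the libraries by trimmed mean of M values (TMM). Tanycyte markers were enriched in the pulldown: over 20 markers the median log2(fold change) of control IP over control input was 2.82. Rax, a transcription factor of tanycytes, was 7.59 higher on that scale. Markers of ependymal cells were enriched more strongly, with a median of 5.17 over 13 tested markers. The part of ependymal RNA in the IPs was not tested. Between genotypes the tanycyte markers were alike in number above and below 0, with 10 of 20 on each side, a median log2(fold change) of 0.02 and 0 of 20 at an unadjusted p under 0.05. This balance depended on single pools, with 15 of 20 above 0, a median of 0.15 and 4 higher at that p without IRΔTan pool 2, and 5 of 20 above 0, a median of -0.07 and 1 lower without IRΔTan pool 3. Dio2, whose promoter drove Cre, had 157, 108 and 245 CPM in IRΔTan IPs and 237, 205 and 185 CPM in control IPs, which overlap. Pool 2 of either group stood apart from the other pools on the first principal component of the IPs, which held 29.7% of the variance. The biological coefficient of variation was 20.5% in the IPs and 8.36% in the inputs, so that the pulldown was the noisier measurement.

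The lox-P sites of the IR fl/fl allele flank exon 4 of Insr. Insr lies on chromosome 8 at 3122061-3279617, minus strand, on GRCm38, with 21 exons in its longest coding transcript, and exon 4 is coding sequence at 3204630-3204778. The first sequence is exon 4 in capitals with 30 bases of each neighbouring exon, and is shown because it is the part that Cre removes. The second joins exon 3 to exon 5 as they meet once exon 4 is gone, with the first stop codon in the new frame in capitals.
Insr exon 4 in its place: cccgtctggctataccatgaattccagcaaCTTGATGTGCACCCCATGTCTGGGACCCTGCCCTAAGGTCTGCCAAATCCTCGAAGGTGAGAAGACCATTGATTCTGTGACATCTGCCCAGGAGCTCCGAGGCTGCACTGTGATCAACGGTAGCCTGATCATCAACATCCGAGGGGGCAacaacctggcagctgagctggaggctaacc
Insr exon 3 joined to exon 5: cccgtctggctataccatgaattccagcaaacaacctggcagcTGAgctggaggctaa
Exon 4 has 149 bases, which leaves a remainder of 2 when divided by 3, so the reading frame shifts after the join. The frame that runs over 1372 codons in the full transcript ends after 329 codons without exon 4, the last 5 of them out of frame. The deposited table counts reads over the whole gene, so a transcript that lacks only this exon still adds to the Insr count.

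Insr was lower in every IRΔTan IP than in every control IP. It had 18.9, 13.2 and 21.0 CPM in the IRΔTan IPs, against 52.2, 53.5 and 50.5 CPM in the control IPs, so that the groups did not overlap and 33.9% of the control level remained. The log2(fold change) was -1.56 ± 0.13 (SE), with an adjusted p of 6.0e-05 in edgeR's quasi-likelihood test over 13520 genes. The pools came from separate mice. The spread behind the p-values and SEs was estimated over 12 libraries, in which each pool counts as an IP and as an input. The biological coefficient of variation was 15.6% in that fit, below the 20.5% of the IPs alone. An exact permutation test of 3 against 3 pools cannot give a two-sided p below 0.1, so none was run. In the inputs Insr had 71.2, 75.8 and 83.7 CPM in IRΔTan pools and 87.2, 89.8 and 89.1 CPM in control pools, again without overlap, with a log2(fold change) of -0.20 ± 0.12 (unadjusted p = 0.11). Even in controls Insr was less abundant in the IP than in the input, by 0.74 on the log2 scale.

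Beyond Insr few genes changed. With an adjusted p under 0.05, 13 of 13520 genes were called (0.0962%), 10 of them lower (0.0740%) and 3 higher (0.0222%) in IRΔTan IPs. The median log2(fold change) over all genes was 0.00 with a median SE of 0.13, and 74.4% of genes lay within 0.25 of 0, against 88.9% in the inputs. An absolute log2(fold change) of at least 1 was found in 338 genes, of which only 19 averaged 10 CPM or more over the 6 IPs. At an unadjusted p under 0.05 there were 907 genes on the higher side (6.71%) and 935 on the lower (6.92%), and IRΔTan and control values did not overlap in 769 genes on the higher side (5.69%) and 758 on the lower (5.61%). Fitted alone, the IPs gave 2.66% of genes on the higher and 2.84% on the lower side at an unadjusted p under 0.05, and limma-voom gave 3.25% and 2.60%. The joint fit, which estimates the spread from IPs and inputs together, thus gives larger counts at this p, also for most of the lists that follow: for cytosolic chaperones 12 were higher in it and 8 with the IPs alone. The count of called genes rests on the fit: 2 genes, Insr and Ubd, were called when the 6 IPs were fitted alone, 237 by DESeq2, and 8 (5 of the 13 among them) with the mean level of Y-linked genes as a covariate. Leaving out a pool gave 2 to 30 called genes. Insr stayed called in all 6 of these fits and Ubd in 5, the exception being without control pool 2 (adjusted p = 0.092), whereas each of the other 11 genes stayed called in at most 2.

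**Figure D1:**
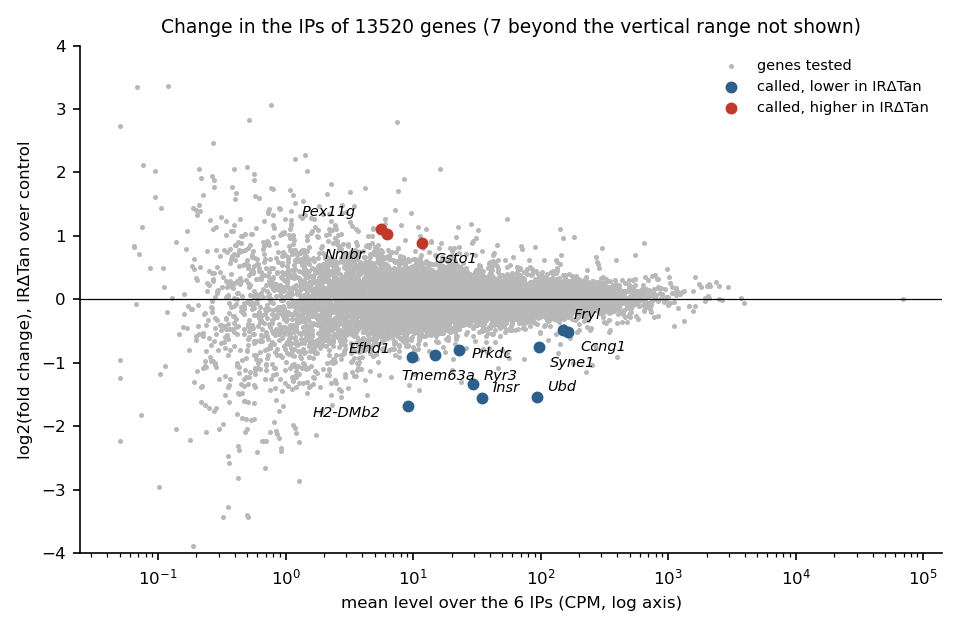
Change in the IPs of each tested gene (vertical axis, log2(fold change) of IRΔTan over control) against its mean level over the 6 IPs (horizontal log axis, CPM). The 10 called genes below 0 and the 3 above it are named, and Insr, Ubd, Ryr3 and H2-DMb2 lie lowest among them.

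**Figure D2:**
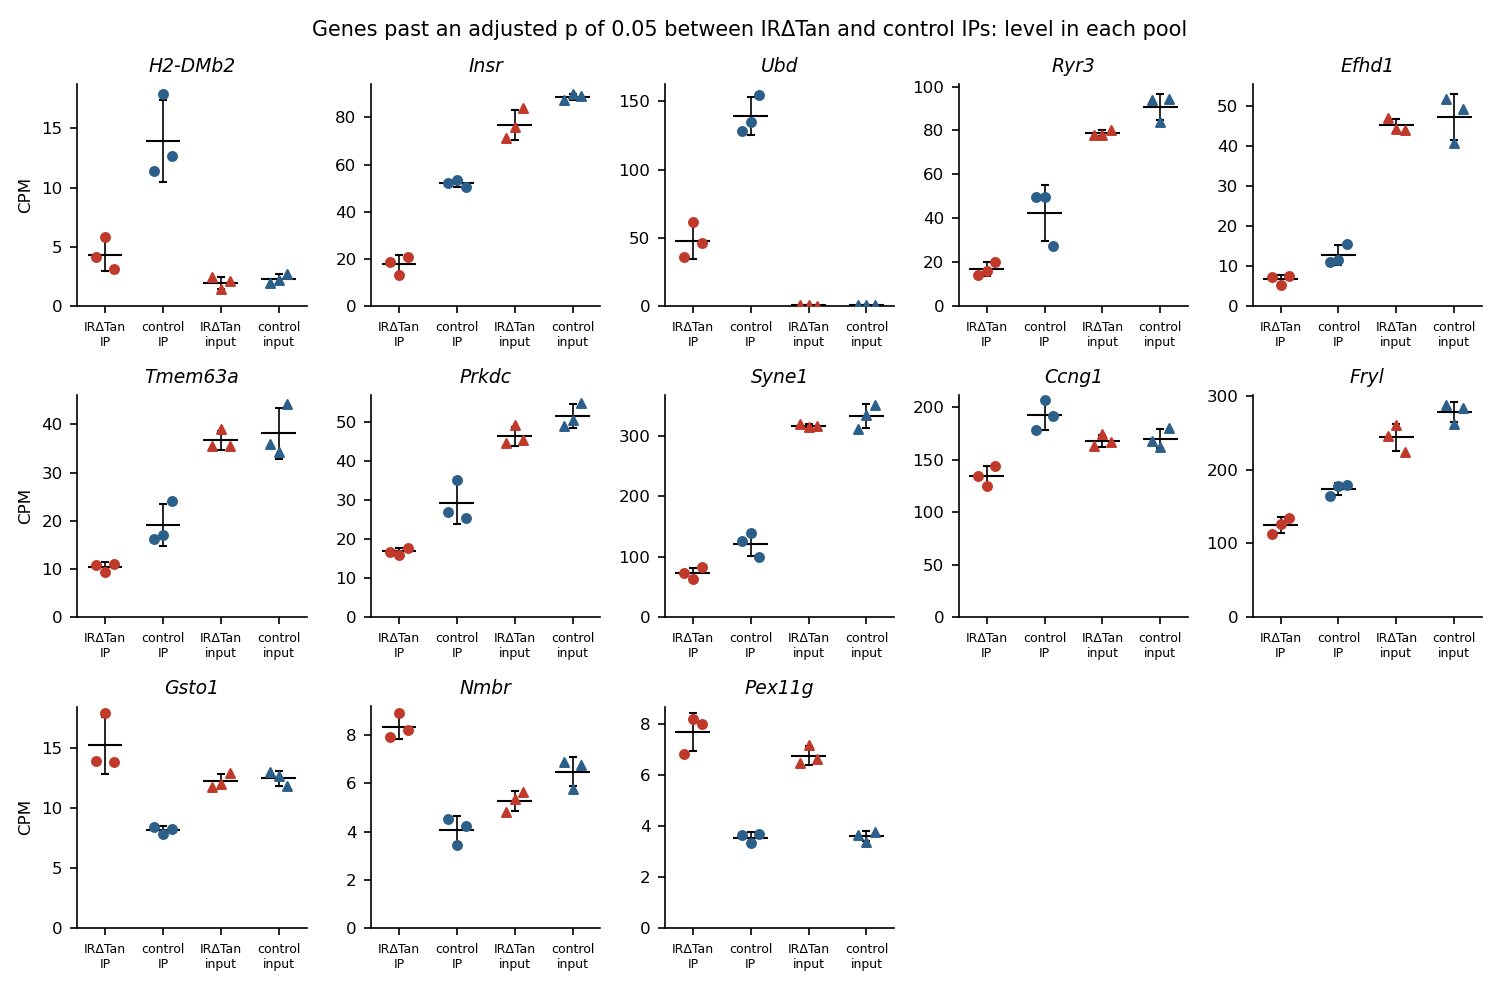
Level of the 13 called genes in each pool (vertical axis, CPM, starting at 0), with IRΔTan left of control for the IPs (circles) and then the inputs (triangles), the mean as a line and the SD as an error bar (n = 3 pools). IRΔTan and control IPs do not overlap in any of the 13 genes. In the inputs Insr, Ryr3, Fryl and Nmbr do not overlap either, by smaller gaps, and only Pex11g shows a gap of like size.

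Ubd fell nearly as far as Insr. It encodes FAT10, a ubiquitin-like protein that marks other proteins for the proteasome and that inflammatory cytokines are known to induce. Its level was 36.0, 61.6 and 46.0 CPM in IRΔTan IPs, against 129, 135 and 155 CPM in control IPs. The highest IRΔTan pool thus stayed below the lowest control pool, with a log2(fold change) of -1.54 ± 0.18 and an adjusted p of 0.0090 in edgeR. Ubd was scarce outside the pulldown, at 0.524 to 1.12 CPM in IRΔTan inputs and 0.708 to 1.14 CPM in control inputs, and in controls the IP exceeded the input by 7.31 on the log2 scale. Over 16 ubiquitin-like modifiers and their E1 and E2 enzymes the median log2(fold change) was 0.02, with 1 member on each side of 0 at an unadjusted p under 0.05. Of 27 interferon response and MHC class I genes 1 was higher at that p, 0 were lower, and the median was -0.01.

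Ryr3 belongs to the ryanodine receptors, the calcium release channels of the endoplasmic reticulum, and had 14.5, 15.97 and 20.3 CPM in IRΔTan IPs, against 49.8, 49.8 and 27.6 CPM in control IPs. Control pool 3 lay nearer to the IRΔTan pools than the other controls did, without overlap. The log2(fold change) was -1.33 ± 0.19 (adjusted p = 0.027, edgeR). Its paralogue Ryr2 did not overlap between the groups either, with 30.5, 26.4 and 32.7 CPM in IRΔTan IPs and 62.4, 85.6 and 40.0 CPM in control IPs, but missed the threshold (log2(fold change) -1.08 ± 0.21, adjusted p = 0.077, edgeR). Among 16 calcium store channels and pumps 2 were lower and 1 higher at an unadjusted p under 0.05 and the median was 0.02, and the IP3 receptor Itpr1 and the SERCA pump Atp2a2, at 0.06 and -0.14, both overlapped between the groups.

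H2-DMb2 encodes a chain of the H2-DM complex, which loads peptides onto MHC class II molecules. It had 4.13, 5.80 and 3.11 CPM in IRΔTan IPs, against 11.4, 17.9 and 12.6 CPM in control IPs (log2(fold change) -1.68 ± 0.28, adjusted p = 0.038, edgeR). H2-DMb1 is a close copy of it, and how estimated counts were split between them was not tested. Its partner chain H2-DMa had 33.0, 52.7 and 30.5 CPM in IRΔTan IPs and 56.2, 107 and 57.3 CPM in control IPs, which do not overlap, with an adjusted p of 0.26 in edgeR. Of 13 genes of MHC class II presentation 12 lay below 0, and the median log2(fold change) was -0.68, or -0.41 without control pool 2. At an unadjusted p under 0.05 there were 4 members on the lower side, of which H2-DMb2 was called. The same list had a median of -0.43 in the inputs.

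The other called genes that fell have varied roles. Ccng1 encodes cyclin G1, a target of p53, and had 134, 125 and 144 CPM in IRΔTan IPs and 178, 207 and 191 CPM in control IPs (log2(fold change) -0.52 ± 0.08, adjusted p = 0.027, edgeR). Prkdc, the catalytic subunit of the DNA-dependent protein kinase that repairs double-strand breaks, had 16.7, 16.01 and 17.8 CPM in IRΔTan IPs and 26.9, 35.2 and 25.5 CPM in control IPs (-0.80 ± 0.12, adjusted p = 0.027, edgeR). In the list of 24 p53 targets and DNA repair kinases that holds both, 4 were lower and 0 higher at an unadjusted p under 0.05, and the median was -0.09, or -0.19 without control pool 1. The p53 target Cdkn1a, at a log2(fold change) of 0.19 (unadjusted p = 0.55), was not among them.

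Syne1 encodes nesprin-1, which ties the nucleus to the cytoskeleton, and had 72.6, 63.7 and 82.5 CPM in IRΔTan IPs, against 127, 139 and 98.9 CPM in control IPs (log2(fold change) -0.74 ± 0.11, adjusted p = 0.027, edgeR). Efhd1, a calcium-binding protein of mitochondria, had 5.42 to 7.44 CPM in IRΔTan IPs and 11.1 to 15.6 CPM in control IPs, and Tmem63a, a mechanosensitive channel, had 9.31 to 11.1 CPM in IRΔTan IPs and 16.3 to 24.0 CPM in control IPs. Fryl, which encodes a relative of the Drosophila protein furry, had 113 to 134 CPM in IRΔTan IPs and 165 to 179 CPM in control IPs, the smallest of the called changes at a log2(fold change) of -0.48 ± 0.08. Fryl is in none of the lists. Among 9 nuclear envelope linkers and lamins 2 were lower and 1 higher at an unadjusted p under 0.05. Among 10 mitochondrial calcium proteins Efhd1 alone was lower, and among 10 mechano- and osmosensitive channels 3 were lower. Syne1, Ryr3, Fryl, Insr and Prkdc have exons of 13187 to 40491 bases in all, against a median of 4334 over tested genes. The other called genes, lower or higher, have 931 to 4492 bases, and the median of the called genes was 3512. The part of transcript length in these changes was not tested.

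Only 3 genes were called on the higher side. Gsto1, an omega-class glutathione transferase, had 13.9, 17.9 and 13.8 CPM in IRΔTan IPs, against 8.45, 7.86 and 8.22 CPM in control IPs (log2(fold change) 0.89 ± 0.14, adjusted p = 0.027, edgeR). Nmbr, the receptor of the neuropeptide neuromedin B, had 7.92, 8.90 and 8.19 CPM in IRΔTan IPs, against 4.54, 3.46 and 4.25 CPM in control IPs (1.03 ± 0.18, adjusted p = 0.047, edgeR). In the inputs the order was the other way, with 4.81 to 5.64 CPM in IRΔTan and 5.78 to 6.86 CPM in control pools. Pex11g, a membrane protein of peroxisomes that acts in their elongation and division, had 6.84, 8.23 and 8.02 CPM in IRΔTan IPs, against 3.66, 3.33 and 3.69 CPM in control IPs (1.11 ± 0.18, adjusted p = 0.032, edgeR), and its inputs are given with the genes near Insr. Among 20 glutathione transferases and enzymes 4 were higher and 0 lower at an unadjusted p under 0.05 with a median of 0.06, and among 23 genes of peroxisome biogenesis and enzymes Pex11g was the single such member.

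In the inputs 0 of the 13 genes were called, and 12 had a log2(fold change) between -0.30 and -0.02. Of all genes 1 had a change that differed between IP and input at an adjusted p under 0.05 (0.00740%), and that was Insr, whose log2(fold change) was lower by 1.35 in the IP than in the input (adjusted p = 0.020, edgeR). The interaction estimate of Ubd was -1.42 and that of Ryr3 -1.13, with adjusted p of 1 and 1, so for neither was a difference between IP and input shown. In controls 9 of the 13 called genes were less abundant in the IP than in the input at an adjusted p under 0.05, as were 33.0% of all tested genes, and 3 were more abundant, as were 33.9%. The 3 enriched genes were Ubd, H2-DMb2 and Ccng1. For genes depleted in the pulldown, such as Syne1, Efhd1 and Ryr3, the part of the IP signal that comes from tanycyte ribosomes was not measured.

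**Figure D3:**
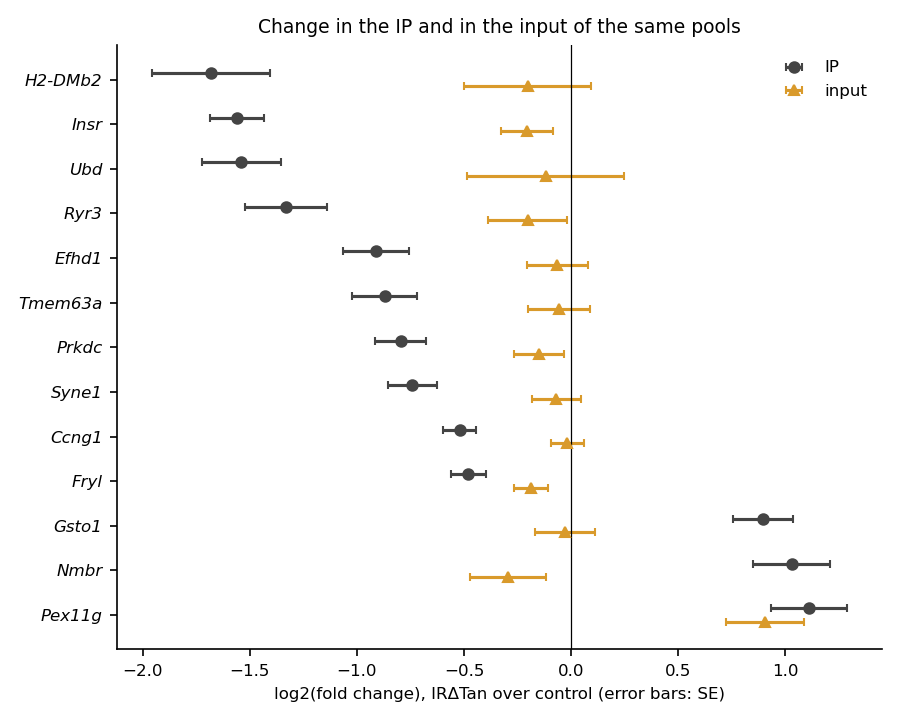
Log2(fold change) of IRΔTan over control (horizontal axis, error bars SE) for the 13 called genes in the IP (circles) and in the input of the same pools (triangles). Input estimates lie between -0.30 and 0 for 12 genes, and Pex11g alone has an input estimate, 0.91, close to that of its IP.

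Beyond Insr no gene in the lists of insulin signalling was called. Of 19 receptors, substrates and regulators of insulin and IGF signalling only Insr itself was called, and the median log2(fold change) was 0.03. The substrate Irs1 had 52.2, 51.3 and 49.6 CPM in IRΔTan IPs and 46.0, 48.0 and 55.5 CPM in control IPs, and the IGF1 receptor Igf1r had 22.9, 25.9 and 24.3 CPM in IRΔTan IPs and 28.0, 26.0 and 24.3 CPM in control IPs. Both overlap between the groups.

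Members of the insulin list on the higher side were substrates and an adaptor. Irs2 had 63.9, 77.2 and 60.3 CPM in IRΔTan IPs, against 51.5, 58.4 and 44.9 CPM in control IPs (log2(fold change) 0.38, adjusted p = 0.19, edgeR). Irs4, a substrate abundant in the hypothalamus, had 277, 257 and 266 CPM in IRΔTan IPs, against 215, 186 and 177 CPM in control IPs (0.47, adjusted p = 0.14, edgeR). Grb10, an adaptor that restrains the receptor, had 167, 171 and 171 CPM in IRΔTan IPs, against 130, 137 and 144 CPM in control IPs (0.30, adjusted p = 0.085, edgeR). None of these passed the test, although the 2 groups did not overlap in any of them. In the inputs Irs2 and Grb10 were higher in IRΔTan without overlap as well, whereas Irs4 overlapped. On the lower side Enpp1, a membrane phosphodiesterase known as an inhibitor of the receptor, had 1.499 to 3.58 CPM in IRΔTan IPs and 3.79 to 6.19 CPM in control IPs (adjusted p = 0.14, edgeR). Insrr, the insulin receptor-related receptor, had 2.34, 1.24 and 1.501 CPM in IRΔTan IPs and 3.14, 6.63 and 3.61 CPM in control IPs (adjusted p = 0.25, edgeR). At an unadjusted p under 0.05 the list held 3 higher and 4 lower members, Insr included.

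Of 24 genes of PI3K, AKT and mTOR signalling 0 were higher and 3 lower at an unadjusted p under 0.05, with a median of -0.01. Those 3 were Pik3cd, Rps6kb1 and Mtor, at log2(fold change) -0.48, -0.27 and -0.19. Of 20 FOXO factors and targets 2 were higher and 3 lower, with a median of 0.00. Bcl6, a transcriptional repressor and known FOXO target, had 92.4, 79.2 and 120 CPM in IRΔTan IPs and 68.6, 69.0 and 67.4 CPM in control IPs (adjusted p = 0.094, edgeR). Foxo1 itself overlapped between groups, at 146 to 202 CPM in IRΔTan IPs and 194 to 213 CPM in control IPs. Of 9 IGF ligands and binding proteins 2 were higher at that p and the median was 0.31.

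Cytosolic chaperones lay on the higher side as a group, each by a small amount. These proteins fold newly made proteins and refold damaged ones, and heat shock factor is known to raise many of them together. All 24 tested members had a log2(fold change) above 0, with a median of 0.23 and a range of 0.01 to 0.72, against a median of 0.00 over all genes. At an unadjusted p under 0.05, 12 were higher and 0 lower, IRΔTan and control IPs did not overlap in 10, and 0 were called. Hsp90aa1, the inducible HSP90, had 1908, 1701 and 1839 CPM in IRΔTan IPs, against 1461, 1279 and 1523 CPM in control IPs (0.35 ± 0.07, adjusted p = 0.080, edgeR). Hsph1, a nucleotide exchange factor of HSP70, had 766, 744 and 809 CPM in IRΔTan IPs, against 621, 633 and 619 CPM in control IPs (0.31 ± 0.06, adjusted p = 0.070, edgeR). Stip1, which passes clients between HSP70 and HSP90, had 268, 258 and 234 CPM in IRΔTan IPs, against 185, 209 and 197 CPM in control IPs (0.36 ± 0.07, adjusted p = 0.074, edgeR). Every IRΔTan pool exceeded every control pool for these 3. Dnaja1, a J-domain partner of HSP70, had 838 to 1001 CPM in IRΔTan IPs and 711 to 758 CPM in control IPs, and the small heat shock protein Hspb1 had 36.0, 26.7 and 33.9 CPM in IRΔTan IPs and 22.1, 22.96 and 13.5 CPM in control IPs. In the inputs the median of the list was 0.07. There Hsph1 did not overlap either, at 817 to 829 CPM in IRΔTan and 710 to 798 CPM in control pools. Hsp90aa1, Stip1, Dnaja1 and Hspb1 did overlap in the inputs. Without each pool in turn the IP median stayed between 0.17 and 0.29, 22 to 24 members lay above 0 and 10 to 14 were higher at an unadjusted p under 0.05. The inducible HSP70 genes Hspa1a and Hspa1b are near-identical copies whose counts can be shared, and both overlapped between the groups.

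Promoters of this list were searched for the letters of a heat shock element, GAANNTTC or TTCNNGAA, each its own reverse complement, in the 250 bases before the gene start (RefSeq, GRCm38.p6). These motifs were chosen after the values were seen. Of 18 chaperones with a promoter sequence 8 held one of them, 44.4%, and of all 10610 tested genes with a promoter 12.0% did. The 8 chaperones with the letters had a median log2(fold change) of 0.31 and those without had 0.17. Among the 8 are Hspa1a and Hspa1b, whose stretches are identical and which overlapped between the groups. Hsp90aa1 and Stip1 are not among them. A part of heat shock factor in these values was not tested. Shown are 3 stretches of 40 bases from members described above, the motif in capitals.
Hsph1, chr5:149636346-149636385, minus strand: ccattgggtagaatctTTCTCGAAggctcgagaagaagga
Dnaja1, chr4:40722328-40722367, plus strand: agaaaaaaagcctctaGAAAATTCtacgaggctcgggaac
Hspb1, chr5:135887786-135887825, plus strand: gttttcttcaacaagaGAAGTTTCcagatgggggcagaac
A match is a run of letters and not a measured binding site.

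The mitochondrial chaperonin Hspd1, which folds imported proteins, had 328, 328 and 348 CPM in IRΔTan IPs, against 270, 275 and 252 CPM in control IPs (log2(fold change) 0.33 ± 0.06, adjusted p = 0.056, edgeR). In the inputs Hspd1 had 355 to 362 CPM in IRΔTan and 319 to 336 CPM in control pools, again without overlap. Timm50, whose IPs follow, had 7.72 to 7.76 CPM in IRΔTan inputs and 7.82 to 9.03 CPM in control inputs. Its change there was within its spread (log2(fold change) -0.12 ± 0.16, unadjusted p = 0.48, edgeR). Parts of the import channels were also apart, with Timm50 at 11.3, 15.9 and 11.6 CPM in IRΔTan IPs and 9.23, 7.79 and 8.61 CPM in control IPs, and Tomm40 at 34.1 to 46.4 CPM in IRΔTan IPs and 26.3 to 32.3 CPM in control IPs. Over the 20 genes of mitochondrial import, chaperones and proteases, however, the median was 0.07, with 3 higher and 1 lower at an unadjusted p under 0.05. The 13 genes encoded by mitochondrial DNA all lay below 0 with a median of -0.35, and 1 of them, mt-Nd5, was lower at that p. Their median was -0.19 in the inputs. They were strongly depleted by the pulldown, with a median of -4.08 in control IP over control input. The study named 9 genes from these libraries, and 8 of them were higher at an unadjusted p under 0.05, the exception being Insr. Because those genes were picked on the same samples, this count is not independent evidence of a direction.

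Neuronal transcripts were present in the pulldown and lay slightly to the higher side. Over 18 neuron markers the median log2(fold change) was 0.12 with 5 higher and 0 lower at an unadjusted p under 0.05. Without control pool 2 the median was 0.06, with 3 higher and 1 lower. Their median in control IP over control input was -1.09, and their summed level was 8170 to 9004 CPM in IRΔTan IPs and 7316 to 8797 CPM in control IPs. Fewer cells of a type and less RNA per cell cannot be told apart in such libraries.

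Among 10 neuropeptides and markers of arcuate neurons 5 were higher and 0 lower at an unadjusted p under 0.05, with a median of 0.46 in the IPs and 0.20 in the inputs. Without IRΔTan pool 2 there was 1 higher and 1 lower, without control pool 2 there was 1 higher, and without control pool 3 there were 3 higher and 1 lower and the median was 0.30. Ghrh, growth hormone-releasing hormone, had 38.5, 23.9 and 30.7 CPM in IRΔTan IPs, against 19.4, 9.23 and 13.7 CPM in control IPs (log2(fold change) 1.14 ± 0.25, adjusted p = 0.087, edgeR). Cartpt had 73.6 to 81.0 CPM in IRΔTan IPs and 42.6 to 70.8 CPM in control IPs, while Pomc, at 95.7 to 116 CPM in IRΔTan IPs and 62.3 to 104 CPM in control IPs, overlapped. Of the 10 genes 0 were called. Among 19 neuropeptide receptors 4 were higher and 0 lower at that p with a median of 0.29, and Nmbr was called. Nmur2, a neuromedin U receptor, had 6.53, 5.36 and 3.41 CPM in IRΔTan IPs and 2.83, 1.31 and 1.36 CPM in control IPs, and Brs3, a bombesin receptor subtype related to Nmbr, had 3.03 to 4.40 CPM in IRΔTan IPs and 1.13 to 2.70 CPM in control IPs. The receptor median dropped to 0.06 without IRΔTan pool 2.

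Immediate early genes, which stimulation switches on within minutes in many cell types, lay higher in the IPs, and 15 of 16 had a log2(fold change) above 0. The median was 0.58 in the IPs and 0.09 in the inputs, 8 were higher and 0 lower at an unadjusted p under 0.05, and 0 were called. Egr3 had 4.84, 2.87 and 4.33 CPM in IRΔTan IPs, against 1.01, 1.65 and 2.00 CPM in control IPs (1.37 ± 0.36, adjusted p = 0.15, edgeR), and Dusp1 had 68.3, 78.4 and 59.3 CPM in IRΔTan IPs, against 38.9, 55.9 and 46.7 CPM in control IPs. Fos overlapped, with 49.4, 81.9 and 44.3 CPM in IRΔTan IPs and 19.2, 51.9 and 25.7 CPM in control IPs, pool 2 being highest in either group. The median fell to 0.28 without IRΔTan pool 2 and was 0.82 without control pool 2.

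**Figure D4:**
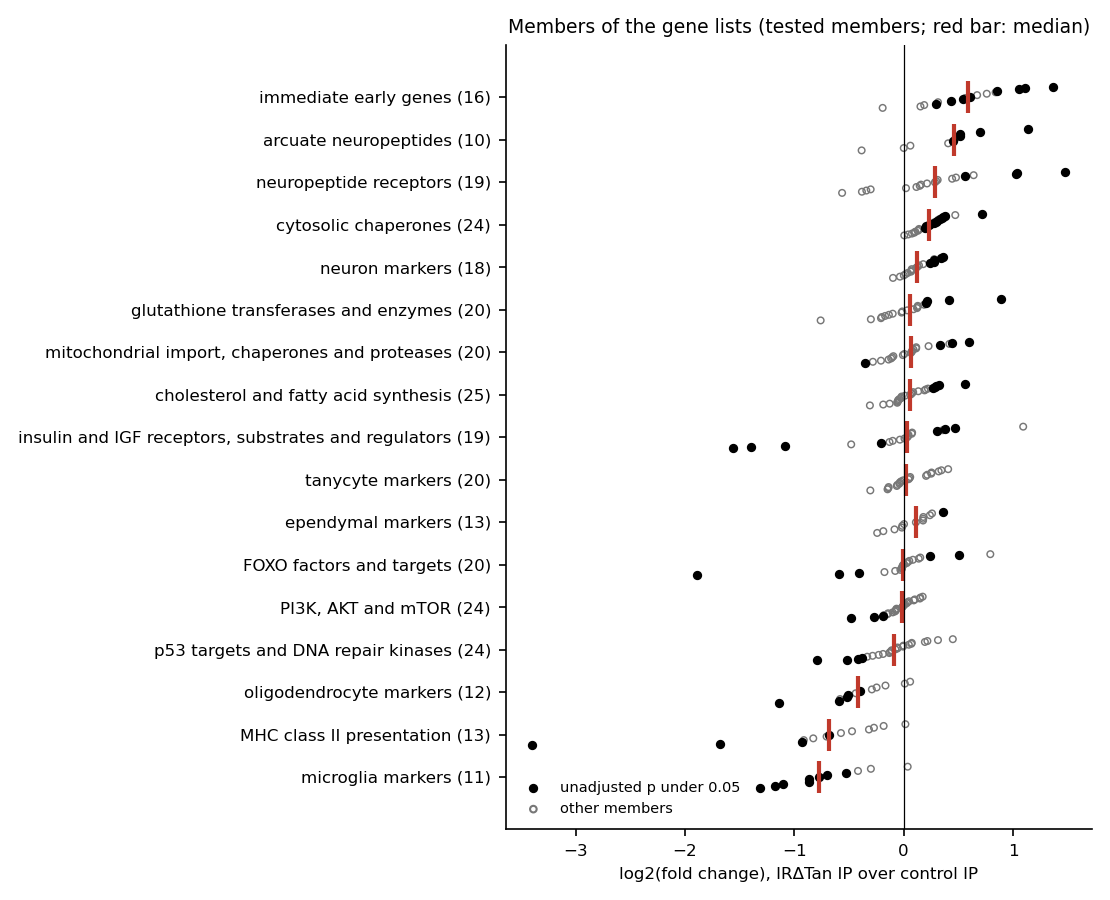
Log2(fold change) of IRΔTan IP over control IP (horizontal axis) for the tested members of 17 gene lists, their number in brackets, with filled points for an unadjusted p under 0.05 and a red bar at the median. Cytosolic chaperones lie above 0 in all 24 members, immediate early genes have the highest median, 0.58, and microglia markers the lowest, -0.77.

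Markers of microglia were lower in IRΔTan IPs and depleted by the pulldown. Of 11 tested markers 10 lay below 0 with a median log2(fold change) of -0.77, 8 were lower and 0 higher at an unadjusted p under 0.05, the groups did not overlap in 7, and 0 were called. Csf1r, the growth factor receptor that microglia depend on, had 4.58, 4.15 and 6.59 CPM in IRΔTan IPs, against 7.52, 10.3 and 9.97 CPM in control IPs (-0.87 ± 0.18, adjusted p = 0.080, edgeR). C1qa, a complement component, had 1.08, 1.31 and 1.77 CPM in IRΔTan IPs, against 2.49, 3.28 and 3.14 CPM in control IPs (adjusted p = 0.11, edgeR). In the inputs the median was -0.25, and 3 of the 11 had an unadjusted p under 0.05 there, against 1.25% of all genes. Csf1r and C1qa were lower in IRΔTan inputs too, without overlap. In controls the markers were lower in IP than input by a median of 1.72 on the log2 scale. Their summed level was 45.5 to 52.2 CPM in IRΔTan IPs and 66.0 to 78.3 CPM in control IPs. Microglia RNA moved in the same direction as Ubd and H2-DMb2. In controls Ubd and H2-DMb2 were more abundant in IP than in input, and the microglia markers less abundant. The part of microglia RNA in the results of Ubd and H2-DMb2 was not tested.

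Markers of oligodendrocytes were also lower, with 10 of 12 below 0, a median of -0.42, and 5 lower and 0 higher at an unadjusted p under 0.05. Ermn, a cytoskeletal protein of myelinating cells, had 13.3 to 20.6 CPM in IRΔTan IPs and 22.9 to 27.1 CPM in control IPs. Without control pool 3 the median was -0.11. In the inputs the list had a median of -0.03. Ependymal markers had a median of 0.11 over 13 genes with 1 higher, astrocyte markers 0.02 over 11 with 1 lower, endothelial markers 0.10 over 7 with 1 higher, and blood cell markers -0.19 over 4 with 0 at that p. Choroid plexus markers had a median of 0.51 over 7 genes with 2 higher, and their leading gene Ttr had 84.8, 66.6 and 434 CPM in IRΔTan IPs and 80.9, 89.6 and 99.9 CPM in control IPs. Markers of the pars tuberalis and pituitary had a median of -0.56 over 5 genes with 2 lower. Cga, the shared chain of the glycoprotein hormones, had 11.5, 1.12 and 5.32 CPM in IRΔTan IPs and 17.2, 13.6 and 17.5 CPM in control IPs (adjusted p = 0.30, edgeR). The part of these cell types in the other results was not tested.

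Cholesterol and fatty acid synthesis had a median log2(fold change) of 0.06 over 25 genes, with 5 higher and 0 lower at an unadjusted p under 0.05. Of these genes 0 were called. Hmgcs1, an early enzyme of the pathway, had 177 to 194 CPM in IRΔTan IPs and 134 to 163 CPM in control IPs. Fasn, the fatty acid synthase, was at 0.07 (unadjusted p = 0.53). Without each pool in turn the median was 0.02 to 0.10 for this list, -0.01 to 0.14 for the glutathione list and -0.11 to -0.01 for PI3K, AKT and mTOR. Glucose and lactate handling had a median of 0.12 over 15 genes with 2 higher. Sex-linked genes had a median of -0.18 over 4 genes, of which 1, Eif2s3y, was lower at that p. By the methods mice of both sexes were used. The mean log2 CPM of Y-linked genes was 3.73, 3.66 and 4.76 in IRΔTan IPs and 4.15, 4.16 and 4.65 in control IPs. Xist, a transcript of female cells, had 4.42, 1.18 and 0.239 CPM in IRΔTan IPs and 6.14, 2.57 and 1.75 CPM in control IPs. The part of the sex mix of the pools in the results was not tested.

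A rule of size named 5 genes in each direction, of at least 10 CPM and without overlap. Those not yet described were Lbp and Gm15446 on the higher side and Gm9780 on the lower. Lbp, which binds bacterial lipopolysaccharide, had 20.6, 23.2 and 17.6 CPM in IRΔTan IPs, against 13.3, 9.20 and 12.6 CPM in control IPs (log2(fold change) 0.81 ± 0.24, adjusted p = 0.19, edgeR). The gene models Gm15446 and Gm9780 moved alike in IP and input, with 1.13 and 1.05 for Gm15446 and -1.17 and -1.48 for Gm9780, and none of these changes passed the test.

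Some genes near Insr differed between the groups in the whole lysate as well as in the pulldown. Within 5 Mb of the start of Insr 26 other genes were tested, all at higher coordinates. In the inputs 8 of them had an unadjusted p under 0.05, against 1.25% of all genes, 6 on the higher and 2 on the lower side, and in the IPs 6 were higher and 1 lower. Pex11g, whose start lies 188 kb from that of Insr, had 6.48, 7.19 and 6.65 CPM in IRΔTan inputs, against 3.67, 3.40 and 3.77 CPM in control inputs, nearly the levels found in the IPs, with a log2(fold change) of 0.91 ± 0.18 (adjusted p = 0.76, edgeR). Ccl25, a chemokine gene 1046 kb away, had 16.7, 16.5 and 18.4 CPM in IRΔTan inputs, against 5.21, 5.34 and 4.91 CPM in control inputs, and was the single gene called in the inputs (1.74 ± 0.23, adjusted p = 0.028, edgeR). No gene was called in the inputs in 5 of the 6 fits without a pool, the exception being without control pool 2. In the IPs Ccl25 had 14.0, 10.8 and 8.36 CPM in IRΔTan pools and 5.00, 3.33 and 6.50 CPM in control pools, with an adjusted p of 0.059 in edgeR. Pnpla6, a phospholipase gene 236 kb away, had 26.9, 28.1 and 25.4 CPM in IRΔTan IPs, against 20.2, 21.7 and 19.3 CPM in control IPs, and 38.5 to 43.0 CPM in IRΔTan inputs, against 30.2 to 34.8 CPM in control inputs. Trappc5, 397 kb away, had 40.9 to 46.2 CPM in IRΔTan IPs and 34.3 to 40.6 CPM in control IPs, with log2(fold change) 0.25 in the IPs and 0.21 in the inputs. Timm44 was the 1 lower gene in the IPs, at -0.36. On the rest of chromosome 8, 50 of 681 genes were higher and 45 lower in the IPs at an unadjusted p under 0.05. Whether the controls carry another Insr allele in every cell rests on the genotype that the sources give in 2 ways. With IR wt/wt controls, the deletion in tanycytes and a difference of the flanking region cannot be told apart for these genes. That holds for Pex11g too. With IR fl/fl controls whose virus carried no Cre the inherited region would be shared, but no tagged ribosomes would be made.

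**Figure D5:**
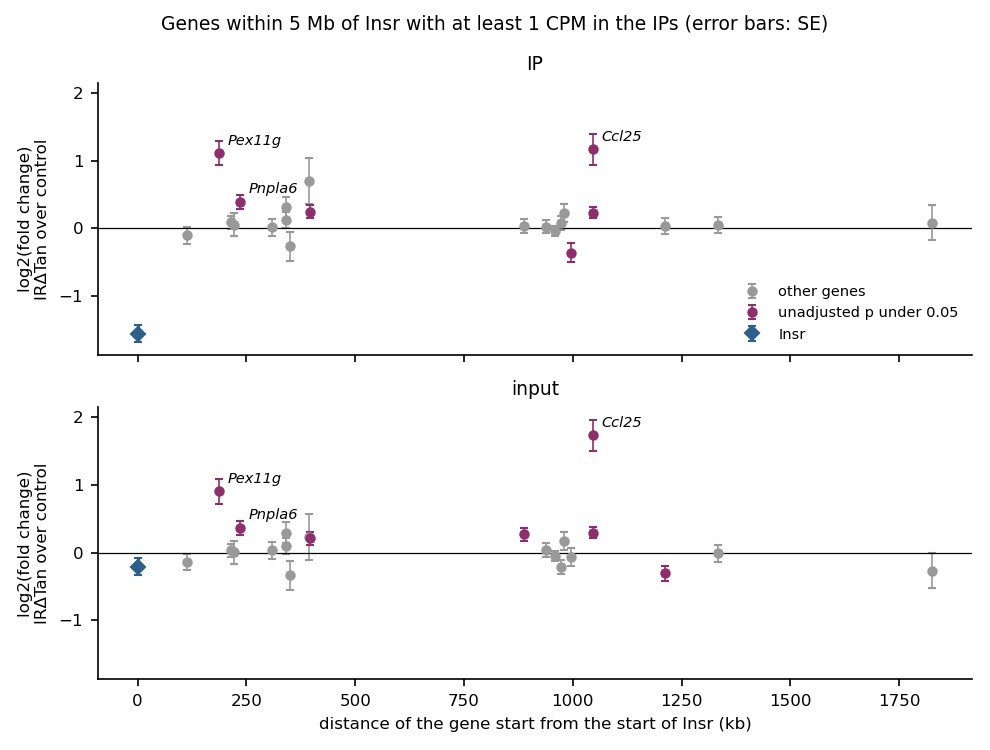
Log2(fold change) of IRΔTan over control (vertical axis, error bars SE) in the IPs (top) and inputs (bottom) for Insr and the 22 tested genes within 5 Mb of it that averaged at least 1 CPM in the IPs, against the distance of their start from that of Insr (horizontal axis, kb). Pex11g, Pnpla6 and Ccl25 lie above 0 in both fractions, whereas Insr lies far below 0 in the IPs only, at -1.56 against -0.20 in the inputs.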

How the data were processed

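Pooled mediobasal hypothalami of 3 NCD-fed IRΔTan and 3 NCD-fed control pools were each split into an IP with anti-GFP antibodies and an input. RNA was amplified with a kit that does not keep the strand, so genes that overlap on opposite strands cannot be told apart. The authors ran nf-core rnaseq on paired reads of 100 bp, and the deposited values are estimated (expected) counts of each gene, not scaled for depth. The submitters' processing notes name STAR, Salmon 0.14.1, DESeq2 1.30.0 and GRCm38.p6. Of the deposited estimated counts 28.0% were not whole. The authors' tables of comparisons hold log2 fold changes and adjusted p-values. None of those values was used, only the list of genes in the table of this comparison.

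Here estimated counts were rounded and tested in R 4.3.3 with edgeR 4.0.16 (quasi-likelihood test with robust prior, TMM scaling over the tested genes, expression filter with a minimum count of 10, Benjamini-Hochberg adjustment over 13520 genes). The 12 IP and input libraries entered 1 fit, with a mean per group and fraction. CPM were scaled over all 20 libraries. The robust prior was chosen after both settings had been seen. Of 44674 identifiers 44118 matched GENCODE M21. Genes were named where called, where the study named them, where among the 3 smallest p-values of 1 of 35 lists, or by a rule of size (5 per direction with at least 10 CPM and no overlap). The rule did not cover Irs1, Irs2, Igf1r, Insrr, Foxo1, Fos, Rax, Dio2, Itpr1, Atp2a2, Cdkn1a, Fasn, H2-DMb1, Hspa1a, Hspa1b, Timm44, Ccl25, Pnpla6 and Trappc5, which were named after their values were seen. A few genes that the rule covers are not reported here. Members and lists were chosen with earlier results of these data known. The fit was tested on simulated counts with known changes. The simulation drew IPs and inputs as independent libraries with the same spread. It therefore cannot show how the p-values hold at the larger spread of the IPs. Alternatives were DESeq2 1.42.0, limma-voom 3.58.1, other scalings, filters and sets of libraries, a replicate block, a Y-linked covariate, and leaving out each pool.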

Additional observations from a re-analysis of the deposited data

Results flagged for a closer look

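The change of Insr differed between fractions, and was lower by 1.35 on the log2 scale in the IP than in the input (a log2 difference of -1.35, adjusted p = 0.020 in edgeR). It was below 0 in every fit that held the inputs, at -1.46 to -1.21 without a pool, with an adjusted p of 0.155, 0.503 and 0.333 without IRΔTan pool 1, control pool 1 and control pool 2, and under 0.05 without each of the other pools. With the replicate number as a block the difference was -1.37 and missed the threshold (adjusted p = 0.206, edgeR). With each pool as a block, which sets an IP against its own input and was chosen after seeing the data, the difference was -1.37 (adjusted p = 0.0017, edgeR).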

How the results depend on the processing

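Insr kept its direction and call under all 18 alternatives, at -1.69 to -1.40. The number of genes called in the IPs was 13, and was 237 with DESeq2, 2 with limma-voom, 50 with all genes of the count table, 21 with at least 5 CPM, 2 with the IPs alone, 30 with all 20 libraries, 8 with the Y-linked covariate, 8 without the robust prior, 6 when changes under 1 on the log2 scale were left out, and 2 to 30 without a pool. It was 15 with RLE size factors, 13 with library totals and 13 without a filter. In the inputs 1 gene was called, 3 with DESeq2, 5 with limma-voom, and 0 with the replicate block and with the Y-linked covariate. With the replicate block it was 33, 9 of the 13 among them, and the number of genes whose change differs between IP and input was 0, as Insr had an adjusted p of 0.206 there. The pool numbers were not shown to pair the groups, since deviations of same-numbered IPs correlated at 0.087, 0.224 and 0.157, although each IP correlated best with its own number. Genes whose change differs between fractions numbered 1, 5 with DESeq2 and 0 to 7 without a pool. Of 2088 values of 117 other genes under an alternative 15 had the opposite sign, 0 of them of a called gene. With the Y-linked covariate Uty was 0.07. The others arose without a pool, where Uty ranged over -0.70 to 0.09, Cldn5 over -0.97 to 2.23, Foxj1 over -0.04 to 0.38, Vim over -0.21 to 0.17, Lhx2 over -0.25 to 0, Kdm5d over -0.72 to 0.04, Ttr over -0.25 to 1.51, Rax over -0.13 to 0.25 and Irs1 over -0.03 to 0.11. Values of the other 12 called genes missed the threshold 103 times, 56 of them without a pool. The causes were not tested.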
